A study of Capra hircus with 10 samples.

Results

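The miRNA of the miR-23, miR-27 and miR-24 clusters were examined in the mammary gland of lactating goats. Their rows were taken by name, with the species prefix dropped and any copy number or arm allowed, and 10 of the 1804 mature miRNA counted in these libraries carried the name miR-23a, miR-23b, miR-27a, miR-27b or miR-24. A mature miRNA is cut from the 5p or the 3p side of a hairpin precursor, and the 10 rows are both arms of 5 precursors. The miR-23a row of the goat has no arm in its name and was taken as the 3p arm from its place in the precursor, and miR-23a-5p is listed under its human name.

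Small RNA were sequenced from the mammary gland of 10 goats of the Alpine breed, with 1 library per goat. Their lactation was at its peak, at 48 ± 2 days post-partum when the experiment began. All goats had the same hay-based diet for 2 weeks, and for the last 48 h it was either given ad libitum (Control, 4 goats) or withdrawn (food deprived, FD, 6 goats). The libraries held 4586700, 6583855, 4495512 and 7506955 miRNA counts in Control, and from 5674119 to 9842009 in FD, so the FD libraries were on average the deeper ones. The tissue was taken whole, so that a change in the share of a cell type and a change of the miRNA within that cell cannot be told apart. Epithelial miRNA were present in every library: the 6 markers found summed to between 172861 and 244167 normalized counts, which are counts divided by a size factor for the depth of the library.

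The miR-23a, miR-27a and miR-24 hairpins lie on one primary transcript in mammals, and miR-23b, miR-27b and another copy of miR-24 lie on a second one. The mature miRNA then pair through their seed, bases 2 to 8, with target mRNA and lower their translation or stability. miR-27 is known for restraining adipocyte differentiation and acts on triglyceride synthesis in goat mammary epithelial cells, miR-24 has been linked to fatty acid synthesis in the same cells, miR-23 acts on the glutaminase mRNA, and the clusters as a whole are known from work on endothelial cells. In the goat RefSeq annotation (assembly ARS1.2, used for names and neighbours because the counts were made on CHIR_1.0), MIR23A and MIR27A are consecutive miRNA genes within the span of ZSWIM4, and MIR23B, MIR27B and MIR24 follow each other within the span of C8H9orf3. In these libraries miR-24 was counted on 1 goat precursor, so its reads cannot be divided between the clusters.

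The 3p arms are shown first because they carry nearly all the reads and because paralogs (copies of a miRNA on the other cluster) differ at 1 base. The capitals mark the seed, and T stands for U as in the deposited sequences.
miR-27b-3p: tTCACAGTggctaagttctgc
miR-27a-3p: tTCACAGTggctaagttccg
miR-23b-3p: aTCACATTgccagggattacc
miR-23a-3p: aTCACATTgccagggatttcc
miR-24-3p: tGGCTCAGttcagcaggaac

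Counted from 1 at the 5′ end, miR-27a-3p and miR-27b-3p share their first 18 bases and then differ by C19T, written from miR-27a to miR-27b, and miR-27b-3p is 1 base longer. miR-23a-3p and miR-23b-3p also share 18 bases and differ by T19A, written from miR-23a to miR-23b. A read of 18 bases or less from this end fits both paralogs, so the division of reads within each pair is uncertain. The seeds of miR-23 and miR-27 differ from each other, and that of miR-24 was held by no other row.

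The 5p arms of the paralogs were less alike, with 8 substitutions between miR-27a-5p and miR-27b-5p and 7 between miR-23a-5p and miR-23b-5p, and they are shown because their reads can be told apart.
miR-27b-5p: aGAGCTTAgctgattggtgaac
miR-27a-5p: aGGGCTTAgctgcttgtgagca
miR-24-5p: gTGCCTACtgagctgatatc
miR-23b-5p: tGGGTTCCtggcatgctgattt
miR-23a-5p: gGGGTTCCtggggatgggattt

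miR-27b-3p was by far the most abundant of these miRNA, with a mean of 146410 normalized counts over the 10 libraries, the rank 11 among the 1804 miRNA. miR-27a-3p followed at 12108 (rank 45), miR-23b-3p at 9845 (rank 48), miR-23a-3p at 9015 (rank 50) and miR-24-3p at 5781 (rank 64). The mature sequences are 20 to 22 bases long and nearly equal in length, so these levels were not scaled by length, and the efficiency with which each sequence is cloned into a library was not measured.

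The 5p arms were at least an order of magnitude lower. Mean normalized counts were 88.0 for miR-27b-5p, 51.2 for miR-24-5p and 51.1 for miR-27a-5p. miR-23b-5p had 13 counts in all, spread over 7 libraries with at most 4 in one, and miR-23a-5p had 6 counts in 4 libraries with at most 3 in one. These arms of miR-23 were the only members below the limit set for the diet test (a highest normalized count above 28), and the other 8 passed it in both diets.

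**Figure D1:**
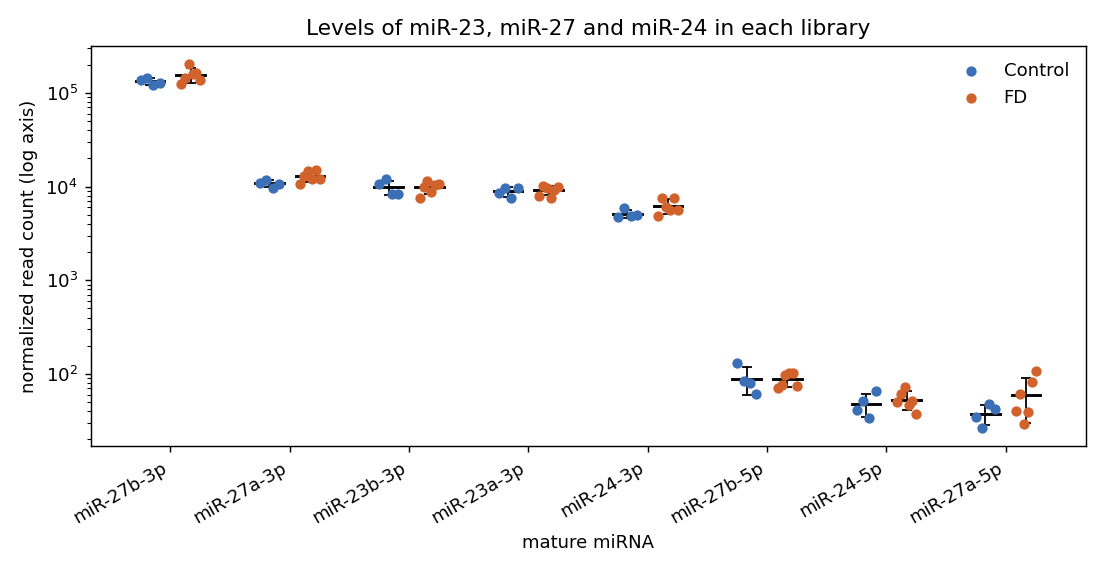
Normalized read counts (log axis) of the 8 members that were tested, with 1 point per library, Control in blue (n = 4) and FD in orange (n = 6), and black bars for the mean ± SD. The 3p arms sit between 4698 and 203106 and the 5p arms between 26.5 and 131, and the diets overlap for every member.

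The order of the levels was tested between neighbours by the exact sign-flip permutation test on the log2 ratio within each library, two-sided, with the p adjusted over the 7 neighbouring pairs. The order itself was taken from the mean levels of these same libraries, so the p measure only how steady each gap was across goats. miR-27b-3p exceeded miR-27a-3p in 10 of 10 libraries, by 12.1-fold (exact permutation, adjusted p = 0.00456, from an unadjusted 0.00195, the smallest the test can give). miR-27a-3p exceeded miR-23b-3p by 1.23-fold in 9 of 10 libraries (exact permutation, adjusted p = 0.00547). miR-23b-3p and miR-23a-3p could not be placed in order, with a ratio of 1.09 and miR-23b-3p higher in 7 of 10 libraries (exact permutation, adjusted p = 0.0729).

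Further down the order, miR-23a-3p exceeded miR-24-3p by 1.57-fold and miR-24-3p exceeded miR-27b-5p by 66.3-fold, each in 10 of 10 libraries (exact permutation, adjusted p = 0.00456 for both). Between the minor arms, miR-27b-5p was 1.72-fold above miR-24-5p in 9 of 10 libraries (exact permutation, adjusted p = 0.00547). miR-24-5p and miR-27a-5p were not distinguished, at a ratio of 1.07 (exact permutation, adjusted p = 0.691).

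The paralogs of miR-27 were thus very unequal and those of miR-23 nearly equal. miR-27b took 92.3% ± 0.513 (SD, n = 10) of the miR-27-3p counts, from 91.6 to 93.2% by library, and miR-23b took 52.1% ± 3.01 of the miR-23-3p counts, from 46.2 to 55.4%. Within the cluster of MIR23B, miR-27b-3p stood 14.9-fold above miR-23b-3p (geometric mean, from 12.2 to 17.9), whereas miR-27a-3p stood 1.34-fold above miR-23a-3p (from 1.11 to 1.63). These shares depend on how the reads common to both paralogs were counted.

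The 3p arm dominated every precursor. In geometric means, miR-27b gave 1684 reads of its 3p arm for each read of the 5p arm (from 1047 to 2113 by library), miR-27a 258 (from 111 to 502) and miR-24 114 (from 76.4 to 148). The value of miR-24 may mix reads from its copies on both clusters, which cannot be divided here. All 5p arms together made up 0.106% ± 0.0136 of the member counts (SD, n = 10).

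The 5 3p arms took 2.56% ± 0.287 (SD) of all miRNA reads in the 4 Control goats and 2.99% ± 0.497 (SD) in the 6 FD goats, with library values from 2.24 to 3.67%. The 95% Wilson interval of a library's share was at most 0.0155 percentage points to either side. It concerns counting error only, not the spread between goats. It may also be too narrow for that, since amplified reads were not told apart from independent molecules. miR-27b-3p alone made up 79.8% ± 1.58 of these 3p counts (SD, n = 10).

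Whether food deprivation changed these miRNA was tested with the quasi-likelihood test of edgeR over 490 miRNA, with Benjamini-Hochberg adjustment over all of them and a threshold of 0.1. None of the 8 members tested passed, and no miRNA at all did (0 of 490, 0%, with a smallest adjusted p of 0.152). At an unadjusted edgeR p under 0.05 there were 0 of 8 members against 77 of 490 miRNA (15.7%), and with DESeq2 at an adjusted p under 0.1 there were 0 of 8 against 27 of 490 (5.51%). The count at an unadjusted p under 0.05 was 1 of 8 with DESeq2 (miR-27a-3p, against 85 of 490 miRNA) and 1 of 8 with no filter on low counts (miR-27a-5p, against 178 of 1804). It was 1 of 8 without FD replicate 3 (miR-27a-5p, against 58 of 487) and 2 of 8 without FD replicate 1 (miR-27a-3p and miR-24-3p, against 97 of 487). The diets did not overlap for 0 of 8 members and for 11 of 490 miRNA (2.24%). The log2 fold change, FD over Control, was above 0 for 6 of 8 members and for 245 of 490 miRNA (50%), and its median was 0.16 over the members and -0.0004 over all miRNA tested. In size, regardless of sign, the median log2 fold change was 0.16 for the members and 0.26 for all miRNA, a gap that was not tested and that comes with smaller errors for the 3p arms (SE from 0.119 to 0.147) than the median SE of 0.223 over all miRNA.

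miR-27b-3p, the main source of the miR-27 seed in this tissue, had normalized counts of 137501, 146056, 120739 and 127847 in the Control libraries. In FD the lowest was 124316, the median 150913 and the highest 203106. The FD values were the more spread, 3 of the 6 lay above every Control library, and the rest lay within the Control range. This gave a log2 fold change of 0.21 (SE 0.133, 95% interval -0.08 to 0.50; edgeR, adjusted p = 0.453).

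miR-27a-3p, which carries the same seed from the other cluster, came closest of the 3p arms to the threshold before adjustment. Its Control libraries stood at 10993, 11855, 9738 and 10765 normalized counts. Those of FD ran from 10742 to 14953 with a median of 12629. All but 1 of the FD libraries lay above every Control library, and the exception, FD replicate 1, fell among the Control values. Its log2 fold change was 0.24 (SE 0.119, 95% interval -0.01 to 0.50; edgeR, unadjusted p = 0.0622, adjusted p = 0.331), and the interval reaches from 0.990-fold to 1.42-fold.

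miR-24-3p gave the widest difference among the 3p arms, though with a larger error. The Control libraries had 4698, 5889, 4909 and 4989 normalized counts, and the FD libraries from 4878 to 7561 with a median of 5886. FD replicates 2 and 5 stood well above the others, and 3 of 6 FD libraries exceeded every Control library. FD over Control, the log2 fold change was 0.27 (SE 0.147, 95% interval -0.05 to 0.58; edgeR, adjusted p = 0.401).

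The miR-23 paralogs had nearly the same mean in both diets. miR-23b-3p measured 10592, 11996, 8445 and 8364 normalized counts in Control and from 7621 to 11530, with a median of 10127, in FD. No FD library was above every Control library and 1 was below them all. Its log2 fold change was -0.01 (SE 0.143, 95% interval -0.33 to 0.30; edgeR, adjusted p = 0.962), a value near 0 whose sign turns under scalings that shift the median of all miRNA and with some libraries left out.

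miR-23a-3p had 8529, 9708, 7554 and 9727 normalized counts in Control and from 7652 to 10043, with a median of 9452, in FD. Only 3 FD libraries passed the highest Control value, and by little. The log2 fold change was 0.02 (SE 0.119, 95% interval -0.24 to 0.28; edgeR, adjusted p = 0.927), also near 0, and its sign turns under scalings and filters that shift the median of all miRNA by about as much or more, and with some libraries left out. The interval runs from 0.849-fold to 1.21-fold, and these data do not separate changes of that size from none.

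Among the minor arms, miR-27a-5p had the highest log2 fold change of the members, 0.67, and also the widest interval (SE 0.362, -0.12 to 1.46; edgeR, unadjusted p = 0.0881, adjusted p = 0.400). The Control libraries lay at 34.6, 26.5, 47.6 and 42.2 normalized counts, and the FD libraries from 29.4 to 109 with a median of 50.5. FD replicates 5 and 6 were the highest, with 137 and 124 raw counts, and the others had 25 to 63. Its coefficient of variation over the 10 libraries was 50.6%, against a median of 24.7% over all miRNA tested.

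miR-27b-5p stood at 131, 84.4, 79.8 and 60.5 normalized counts in Control and from 70.4 to 104, with a median of 86.7, in FD, all of them within the Control range. The log2 fold change was -0.03 (SE 0.220; edgeR, adjusted p = 0.951), and its sign too turns under other settings. miR-24-5p had 41.5, 52.0, 33.6 and 65.3 normalized counts in Control and from 37.6 to 71.8, with a median of 50.8, in FD. The diets overlapped almost wholly, and the log2 fold change was 0.12 (SE 0.230; edgeR, adjusted p = 0.812).

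**Figure D2:**
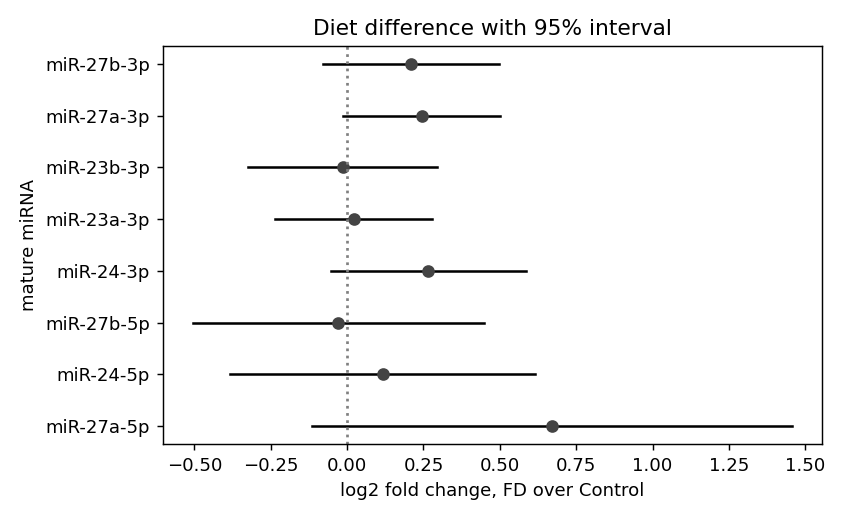
Log2 fold change of FD over Control from edgeR for the 8 tested members, with a point for the estimate and a line for its 95% interval, and a dotted line at no change. All 8 intervals cover 0, and the point of miR-27a-5p (0.67) has the longest line, from -0.12 to 1.46.

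Because reads can be shared within each pair, the paralogs were also summed and the fit repeated, an alternative chosen after the values were seen. For miR-27-3p the sum came to 143873 ± 11910 normalized counts with food (SD, 4 goats) and 168280 ± 28879 without it (SD, 6 goats), a log2 fold change of 0.17 (SE 0.126, 95% interval -0.10 to 0.45; edgeR, adjusted p = 0.498). For miR-23-3p it came to 18729 ± 2371 and 18947 ± 2323, a log2 fold change of -0.03 (SE 0.118, 95% interval -0.29 to 0.22; edgeR, adjusted p = 0.891). Neither family passed the threshold.

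Ratios of counts within a library do not depend on how libraries are scaled, and 9 of them were compared between diets by the exact permutation test over the 210 ways to assign the goats, two-sided, with the p adjusted over the 9 ratios. None reached an adjusted p under 0.05, and the smallest adjusted p was 0.257. The miR-27a-3p to miR-23a-3p ratio, within the MIR23A cluster, came to 1.22 in Control and 1.42 in FD (geometric means). By library it was 1.29, 1.22, 1.29 and 1.11 in Control, and in FD it ran from 1.199 to 1.63. It was above every Control library in 5 of 6 FD libraries, a log2 difference of 0.22 (exact permutation, p = 0.0667, adjusted p = 0.257).

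In the MIR23B cluster the miR-27b-3p to miR-23b-3p ratio was 13.6 in Control and 15.7 in FD, a log2 difference of 0.21 (exact permutation, p = 0.1, adjusted p = 0.257), with 4 of 6 FD libraries above every Control library. The ratio of miR-24-3p to miR-23a-3p was 0.578 and 0.678 (log2 difference 0.23, exact permutation, adjusted p = 0.257), and that to miR-23b-3p was 0.524 and 0.630 (log2 difference 0.26, exact permutation, adjusted p = 0.257). These 4 ratios share members and so are not separate pieces of evidence.

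The balance between paralogs was nearly the same in both diets. miR-27b-3p over miR-27a-3p was 12.3 in Control and 11.9 in FD, a log2 difference of -0.04 (exact permutation, p = 0.586, adjusted p = 0.707). With a library left out this difference ran from -0.083 to -0.017. The Control goats spanned only 11.9 to 12.5, while the FD goats spanned 10.9 to 13.8 and lay on both sides of them, 2 above and 4 below. miR-23b-3p over miR-23a-3p was 1.10 and 1.08 (exact permutation, adjusted p = 0.771). For the ratio of the 5p to the 3p arm, the log2 difference was 0.31 for miR-27a, -0.20 for miR-27b and -0.11 for miR-24. The exact permutation p were 0.495, 0.333 and 0.629 in that order, and the ratio of miR-24 may mix reads from its copies on both clusters. With a library left out, the difference ran from 0.086 to 0.52 for miR-27a and from -0.35 to -0.0086 for miR-27b.

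**Figure D3:**
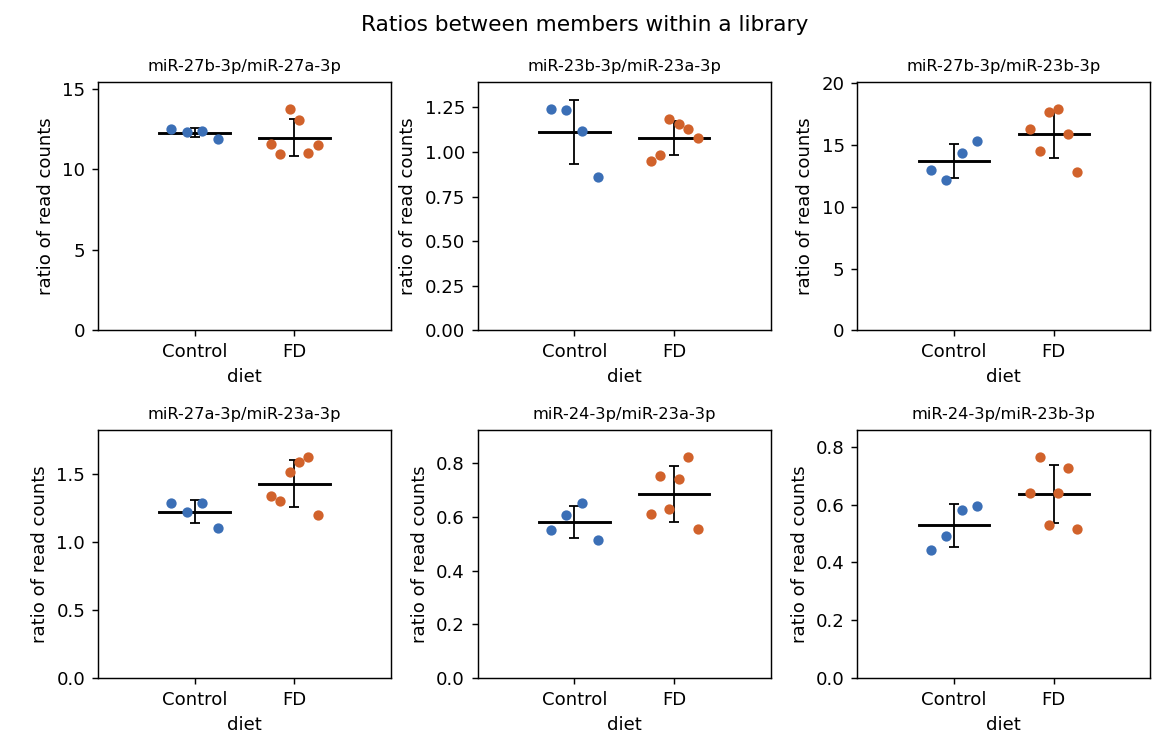
Ratios of read counts between members within each library, in 6 panels that each start at 0, with Control in blue (n = 4), FD in orange (n = 6) and black bars for the mean ± SD. The FD points reach higher in the panels that set miR-27 or miR-24 over miR-23, and the diets overlap in all 6.

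Across all 10 goats, the highest correlation between members was that of the miR-27 paralogs, which are transcribed from different clusters, though with some libraries left out miR-27a-3p and miR-24-3p came first. On log2(normalized count + 1), Pearson's r of miR-27a-3p with miR-27b-3p was 0.882 and Spearman's rho 0.927 (permutation, adjusted p = 0.003 and 0.0022 over the 10 pairs of 3p arms). It was 0.853 in deviations from the diet means (permutation, adjusted p = 0.017), and 0.812 without FD replicates 3 and 5, the libraries farthest from the median of miR-27a-3p. Here and below, the permutation of deviations makes no allowance for the diet means taken off, so its p come out too small. The paralogs share their first 18 bases, and the part of reads common to both in these values of r was not tested.

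miR-27a-3p also varied with miR-24-3p, with r = 0.834 and rho = 0.842 (permutation, adjusted p = 0.018 and 0.0188). A copy of miR-24 is its neighbour on the primary transcript as known in mammals. In the goat annotation used, however, MIR24 follows MIR27B and not MIR27A, and the reads of miR-24-3p cannot be divided between the clusters. In deviations from the diet means r was 0.748 (permutation, adjusted p = 0.0446, too small for the reason given above). Without the 2 farthest libraries r was 0.849, above the 0.812 of the paralogs. Without FD replicate 3 alone the values were 0.902 for this pair and 0.880 for the paralogs. Without FD replicate 5 the adjusted p became 0.098 (permutation, r = 0.757).

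Pairs within an annotated cluster were looser. miR-23b-3p with miR-27b-3p gave r = 0.622 and rho = 0.636 (permutation, adjusted p = 0.149 and 0.136). In deviations from the diet means its r was 0.707 (permutation, adjusted p = 0.0466, again too small). miR-23a-3p with miR-27a-3p gave r = 0.513 and rho = 0.503 (permutation, adjusted p = 0.18 and 0.205), and r was 0.323 without Control replicate 3. miR-27b-3p with miR-24-3p gave r = 0.560 and a higher rho of 0.770 (permutation, adjusted p = 0.151 and 0.0413). Whether the correlations of 2 pairs differ from each other was not tested.

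Between the miR-23 paralogs r was 0.617 and rho 0.455 (permutation, adjusted p = 0.149 and 0.243), and miR-23a-3p with miR-27b-3p gave r = 0.325 and rho = 0.358 (permutation, adjusted p = 0.369 and 0.312). This last r rested on single libraries, at 0.137 without Control replicate 3, 0.208 without FD replicate 3 and 0.501 without FD replicate 4. The 3 pairs left, miR-27a-3p with miR-23b-3p and miR-24-3p with each miR-23, had r of 0.593, 0.494 and 0.433 (permutation, adjusted p = 0.149, 0.18 and 0.235) and rho of 0.527, 0.564 and 0.406 (permutation, adjusted p = 0.205, 0.189 and 0.275). In deviations from the diet means miR-27a-3p with miR-23b-3p, a pair across clusters, reached r = 0.770 (permutation, adjusted p = 0.0446, too small like the others of this kind). All 10 values of r were above 0. Within the 6 FD goats alone none of the 10 pairs had an adjusted p under 0.2 (permutation), with r from 0.234 to 0.837. The values of r over the 4 Control goats alone are not given, since a correlation was given only over 6 goats or more.

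**Figure D4:**
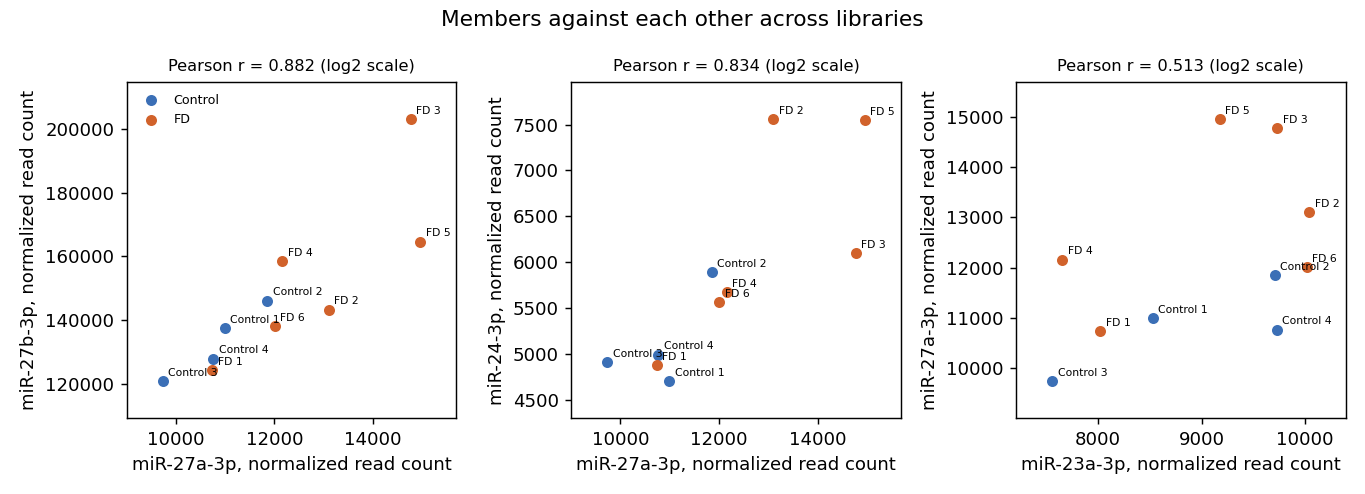
Normalized read counts of 3 pairs of members, 1 point per library with its diet and replicate number beside it, Control in blue (n = 4) and FD in orange (n = 6), and Pearson's r of the log2 values above each panel. FD replicates 3 and 5 stand at the upper right of the miR-27 panel, and the points scatter most in the panel of miR-23a-3p and miR-27a-3p (r = 0.513).

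The log2 values of the 5 3p arms were each standardized over the 10 libraries (centred on their mean and divided by their SD). The mean of these standardized values gives every arm the same weight. Among the 482 other miRNA tested, those most like this mean were miR-497-5p (r = 0.945), the predicted miRNA chr12_18027-5p (0.906) and miR-542-3p (0.884). The least like were miR-200a-5p (-0.836), miR-429-3p (-0.825) and miR-200a-3p (-0.795), all of the miR-200 family that marks epithelial cells. These values are descriptions over 10 libraries, with the same libraries and size factors behind each, and no p was given. Ranked for one member at a time among 489 miRNA, the paralog was often nearer than the partner on the transcript: for miR-27b-3p, miR-27a-3p came 3rd and miR-23b-3p 73rd, and for miR-23a-3p, miR-23b-3p came 11th and miR-27a-3p 35th. For miR-23b-3p the order was the other way, with miR-27b-3p 14th and miR-23a-3p 16th.

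Other miRNA with reported roles in mammary lipid synthesis were described in the same way. All 16 of that list were found and tested, and 0 passed an adjusted edgeR p of 0.1 (0% of all miRNA) or an unadjusted p of 0.05 (15.7% of all miRNA). The count at an unadjusted p under 0.05 was 2 of 16 without FD replicate 1 (against 97 of 487 miRNA). It was 1 of 16 with DESeq2 (against 85 of 490), without FD replicate 2 (64 of 488) and without Control replicate 2 (71 of 489). The log2 fold change was above 0 for 11 of the 16 (50% of all miRNA) and below 0 for 5, and the median was 0.08, against -0.0004 over all miRNA. The most abundant was miR-148a-3p, which is rich in milk, at a log2 fold change of -0.31 (SE 0.191; edgeR, adjusted p = 0.440). miR-143-3p, miR-26a-5p and miR-181a-5p followed in level, with log2 fold changes of 0.11, 0.23 and 0.15 (edgeR, adjusted p = 0.739, 0.400 and 0.638). Against the mean of the standardized 3p arms across goats, r was -0.750 for miR-148a-3p (rank 472 of 482), 0.776 for miR-143-3p (rank 26), 0.684 for miR-26a-5p (rank 53) and 0.113 for miR-181a-5p (rank 215), and the 16 values ran from -0.765 to 0.820.

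Markers of other cell types were set beside the members, and 0 of them passed the adjusted threshold in edgeR. Their counts at an unadjusted edgeR p under 0.05, given next, stand against 15.7% of all miRNA tested. The 2 endothelial markers, miR-126-3p and miR-126-5p, summed to 133853 ± 12350 normalized counts in Control and 168383 ± 23642 in FD (SD), both with an unadjusted edgeR p under 0.05. Of the 4 leukocyte markers found, 3 had an unadjusted p under 0.05, and the list summed to 10013 ± 1879 and 12949 ± 3971, with miR-155-5p the most abundant and miR-142-3p and miR-142-5p not analysed here. The 3 erythroid markers found summed to 5075 ± 1034 and 7004 ± 1018, with miR-451-5p the most abundant, 1 of them at an unadjusted p under 0.05, and miR-486-5p not analysed here.

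Of the 6 epithelial markers found, the 5 of the miR-200 family had a log2 fold change below 0, and miR-205-5p had 0.41. Over all miRNA tested, 50% were above 0. The 6 markers had a sum of 230076 ± 10016 normalized counts in Control and 211441 ± 25321 in FD. miR-141-3p was the most abundant of them, 2 had an unadjusted edgeR p under 0.05, and miR-375-3p was not analysed here. Stromal and smooth muscle markers summed to 752536 ± 114751 and 819178 ± 191875, nearly all of it miR-143-3p, with miR-199a-3p not analysed here. Skeletal muscle markers were low, at 835 ± 272 and 876 ± 327, most of it miR-133a-3p, and miR-206-3p was at or near 0 in every library. Against the mean of the standardized 3p arms over the 10 libraries, the lists differed in r. The endothelial markers gave 0.442 for miR-126-3p and 0.513 for miR-126-5p, and the erythroid ones 0.248 for miR-451-5p, 0.428 for miR-144-3p and -0.227 for miR-144-5p. Among the leukocyte markers, miR-155-5p, with a log2 fold change of -0.12, had r = -0.330, while miR-223-3p, miR-223-5p and miR-150-5p, with log2 fold changes of 1.15, 0.996 and 0.87 (edgeR, adjusted p = 0.195, 0.195 and 0.298), had r of 0.490, 0.217 and 0.761. These values set the most abundant leukocyte marker apart from the rest of its list. The 5 epithelial markers of the miR-200 family had r from -0.825 (miR-429-3p) to -0.455 (miR-141-3p), and miR-205-5p had 0.703. The 4 stromal and smooth muscle markers had r from 0.616 (miR-145-5p) to 0.790 (miR-199a-5p), and miR-1-3p and miR-133a-3p had 0.793 and 0.524. The part of these cell types in the levels of the members was not tested.

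The seed of miR-27 was held by 4 of the 1804 rows: miR-27a-3p, miR-27b-3p and the 5p arms of a pair of predicted precursors, which are shown with the seed in capitals to set beside the miR-27 sequences above.
chr4_5826-5p: tTCACAGTggctaagttga
chr28_34898-5p: tTCACAGTggctttctg

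The precursor of chr4_5826-5p lies at chr4:98066483-98066558 (CHIR_1.0, plus strand), with a miRDeep2 score of 4.8 and 1198 reads. Its mature sequence shares the first 17 bases of miR-27b-3p and then differs by C18G and T19A, written from miR-27b-3p and counted from its 5′ end. Library counts ran from 43 to 251, which was 0.0432 to 0.0981% of those of miR-27b-3p. Normalized counts were 97.9 ± 34.7 in Control and 121 ± 22.3 in FD (SD), a log2 fold change of 0.29 (SE 0.234; edgeR, adjusted p = 0.505), and r with miR-27b-3p was 0.615 over the 10 libraries.

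The precursor of chr28_34898-5p lies at chr28:31264096-31264181 (CHIR_1.0, plus strand), with a score of 3.8 and 20 reads. Its sequence shares the first 12 bases of miR-27b-3p. It had 0 to 5 counts in a library and was below the limit for testing. Reads of chr4_5826-5p that end within its 17 shared bases cannot be told from those of miR-27.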

How the data were processed

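The counts were raw read numbers for each mature miRNA in each library, deposited by the authors, who trimmed adapters, mapped the reads to the goat genome CHIR_1.0 and counted them on known and predicted precursors with miRDeep2. Base calling used CASAVA 1.8.2 per the labels. The score of a predicted precursor was the miRDeep2 score deposited by the authors, made on all libraries together. Normalized columns in the tables were not used. The members and lists were chosen with earlier results of these data known.

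Normalized counts were counts divided by median-of-ratios size factors on all 1804 miRNA. Diets were compared in the 490 miRNA with a highest normalized count above 28 by edgeR 4.0.16 (TMM, quasi-likelihood F test, two-sided, no covariates, R 4.3.3) with Benjamini-Hochberg adjustment, and DESeq2 1.42.0 and limma 3.58.1 were alternatives. The interval of a log2 fold change came from its size over the square root of F. Correlations used 100000 permutations, with FD alone and the ratios enumerated exactly (scipy 1.17.1). Deviations from the diet means were permuted freely over all libraries. The tests were checked on simulated data. Other alternatives were other scalings and filters, libraries drawn down to 4495512 counts, and each library left out in turn. Described are every member, the 3 most and 3 least alike miRNA, the 4 most abundant of the milk fat list, the most abundant marker of each cell type and every row sharing a 3p seed; the other cell type markers were named after their values were seen. Nothing in the labels ties libraries to a batch. No values from target predictions or mRNA were analysed here.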

Additional observations from a re-analysis of the deposited data

How the results depend on the processing

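In 20 alternative settings 0 members passed the adjusted threshold, and fold changes of miR-27b-3p, miR-27a-3p, miR-24-3p and miR-27a-5p stayed above 0 in all settings run. Their size rested in part on single libraries: without FD replicate 5 the log2 fold change was 0.13 for miR-27b-3p, 0.14 for miR-27a-3p and 0.14 for miR-24-3p, without FD replicate 3 or Control replicate 4 it was 0.14 for miR-27b-3p, and without FD replicate 6 it was 0.40 for miR-27a-5p. Under upper quartile scaling it was 0.13 for miR-27b-3p, 0.17 for miR-27a-3p and 0.19 for miR-24-3p, where the median of all miRNA tested was -0.074. The number of miRNA past the threshold over the whole table was 0 in edgeR, 27 with DESeq2, 5 with no filter on low counts, and from 0 to 1 with a library left out. Values near 0 turned sign. The log2 fold change of miR-23a-3p was -0.059 under upper quartile scaling, -0.0085 with filterByExpr, -0.0057 with a highest normalized count above 100, -0.0098 drawn down, and from -0.042 to 0.079 with a library left out. Those settings also moved the median log2 fold change of all miRNA tested, from -0.0004 to -0.074, -0.037, -0.025 and -0.025 in that order, and relative to it miR-23a-3p stayed above 0. With the paralogs summed the miR-23-3p family had -0.034, where the median of all miRNA was also -0.034. For miR-23b-3p it was 0.013 on library totals, 0.0061 with no filter (medians of all miRNA 0.036 and 0.021), 0.0029 in the exact permutation test, and from -0.14 to 0.072 with a library left out. For miR-27b-5p it was 0.012 with limma-voom, 0.0028 drawn down, 0.011 in the exact permutation test, and from -0.22 to 0.20 with a library left out, and for miR-24-5p from -0.00021 to 0.24. The causes of these turns in sign were not tested. With a library left out, the log2 diet difference of the miR-23b-3p to miR-23a-3p ratio ranged from -0.15 to 0.024, that of the miR-24-5p to miR-24-3p ratio from -0.24 to 0.067, the level of miR-24-5p over miR-27a-5p from -0.028 to 0.28 (log2), that of miR-23b-3p over miR-23a-3p from 0.10 to 0.16 (past the threshold without Control replicate 4, exact permutation, adjusted p = 0.0182), r of miR-27a-3p with miR-24-3p from 0.757 to 0.902, and the median of the milk fat list from -0.0018 to 0.13. No paired analysis was possible because the labels give no number that joins goats of different diets. Depth limits the 5p arms of miR-23, where 3 counts in a library correspond to 1.79 to 4.20 normalized counts.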
